A study of Mus musculus with 6 samples.

Results

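The genes described here are the mouse histone genes of mDE6 cells, taken by symbol from a whole-table comparison of cells with less Arl4c and their controls. A gene was a member when its symbol began with one of the histone prefixes (Hist1h to Hist4h, H1f, H2af, H3f3a or H3f3b and the newer forms of these names). The name table held 88 such genes, of which 79 were listed among the 22032 genes of the deposited table and 71 of those had a mean of at least 1 CPM (reads scaled to a common library size), the minimum for testing. Of the 79 listed, 64 were replication-dependent genes, 10 were variant genes and 5 were other matches, namely pseudogenes and an antisense gene. The rule reads symbols and no measured value, but the set was put forward with the results of this comparison known. Its calls are therefore given as a description, read from the fit over all genes, with no test of the set.

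Histones package DNA into nucleosomes, and their supply is matched to DNA synthesis. The replication-dependent genes lie in clusters, lack introns and give mRNAs that end in a conserved stem-loop in place of a poly(A) tail. Stem-loop binding protein (SLBP) and the U7 small nuclear ribonucleoprotein make that end, and the mRNAs are destroyed when DNA synthesis stops. The variant genes stand alone, mostly carry introns and a poly(A) tail, and are expressed throughout the cell cycle. Their products replace canonical histones at particular places in chromatin, such as H2A.Z near promoters and H3.3 in transcribed genes.

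The study compared RNA of the mouse line mDE6 under a control hairpin (shControl, 3 samples) with that under a hairpin targeting Arl4c (shArl4c, 3 samples). Short hairpin RNAs lower a transcript by RNA interference, and Arl4c is a small GTPase related to the ARF proteins. Both groups thus expressed a hairpin, and no other agent, age or genotype is given in the labels. Library numbers follow the table (1 to 3 for shControl, 2 to 4 for shArl4c), and values are always listed in the order of these numbers. There was 1 hairpin group for Arl4c, so a lower Arl4c level and anything else that the hairpin does cannot be told apart. Separate cultures are not stated in the labels, and p-values therefore reflect the spread among these samples alone, which may be technical.

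The libraries held 12316770 to 14976113 reads, so that a count of 3 reads, taken as the floor, was 0.202 to 0.248 CPM. Values of 0 were left as they were. Arl4c stood at 20.7, 21.0 and 20.1 CPM in shControl against 6.75, 7.42 and 6.89 CPM in shArl4c (log2 fold change -1.43 with SE 0.09 and an adjusted p of 2.08e-10 by limma). Over the 14740 tested genes, 36.9% were called at an adjusted p under 0.05, 18.9% as higher and 18% as lower in shArl4c, and the median log2 fold change was 0.01. Of 10 mesenchymal marker genes all were listed, with summed levels of 40882 to 42393 CPM in shControl and 25083 to 25743 CPM in shArl4c. Of the 9 of them that were tested, 2 were called higher, 5 lower and 2 not at all. Of 12 epithelial markers 9 were listed, and they summed to 10.5 to 13.2 CPM over all 6 libraries. Of 8 leukocyte markers 6 were listed and 2 tested, of which Cd68 was called higher, and the 5 listed without Cd68, a gene singled out after its values were seen, summed to 2.32 to 2.76 CPM in shControl and 1.09 to 2.17 CPM in shArl4c. The part of such differences in the histone values was not tested. The sources used here do not say whether polyadenylated RNA was selected.

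The 2 classes differed in sequence. A stem-loop was searched for in the annotated transcripts on the sense strand, as GG, 2 bases, CT, a loop of 4 bases, AG, 2 bases and CC, with both 6-base arms complementary to each other. It was found in 45 of the 64 listed replication-dependent genes (70.3%), in 1 of the 10 variant genes and in 177 of 21901 protein-coding genes (0.808%). Leaving out gene models that stop at the coding sequence, it was found in 45 of 55 replication-dependent genes (81.8%). The following examples are shown because they cover the families and the 1 variant with the element; capitals mark the stem-loop, and the flanks are in lower case.

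Hist1h1c: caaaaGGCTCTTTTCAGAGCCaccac

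Hist2h2aa1: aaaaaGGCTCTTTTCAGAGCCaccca

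Hist1h2bk: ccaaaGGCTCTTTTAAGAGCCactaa

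Hist1h3g: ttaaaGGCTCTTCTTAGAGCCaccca

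Hist1h4d: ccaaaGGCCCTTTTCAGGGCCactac

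H2afx: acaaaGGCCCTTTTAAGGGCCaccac

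These elements lie in the 3′ untranslated parts of their transcripts. In the GRCm38 build, that of the annotation used for sequences, the printed stretch of Hist1h1c, flanks included, is at chr13:23739507-23739532 on the plus strand, that of Hist2h2aa1 at chr3:96246027-96246052 on the plus strand and that of Hist1h2bk at chr13:22036295-22036320 on the plus strand. The Hist1h3g stretch is at chr13:23535884-23535909 on the plus strand, that of Hist1h4d at chr13:23581945-23581970 on the plus strand and that of H2afx at chr9:44335235-44335260 on the plus strand. The form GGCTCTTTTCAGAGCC was carried by 26 replication-dependent genes (unlisted ones included), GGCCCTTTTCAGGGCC by 7 and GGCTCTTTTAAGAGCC by 6. Hist1h3g was the only one of them with GGCTCTTCTTAGAGCC. The H2afx stem-loop had 822 bases of annotated transcript after it, and that of Hist1h2bk had 30.

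The poly(A) signal AATAAA was looked for in the last 50 bases of the transcripts, on the sense strand. It was present in 9 of the 10 variant genes (90%), all but H2afx, in 15 of 64 replication-dependent genes (23.4%) and in 65.7% of protein-coding genes. Among the tested replication-dependent genes, the 11 with AATAAA had a median log2 fold change of 0.57, with 5 called higher. The 48 without it also had a median of 0.57, with 35 called higher. The 41 with a stem-loop had a median of 0.59 and 32 calls, and the 18 without one 0.55 and 8 calls. The medians of these subsets thus lay close to each other. Of all tested genes, 18.9% were called higher. The 9 replication-dependent models that stop at the coding sequence were tested and fell in both subsets without the element. They hold no 3′ untranslated part, so these subsets are not all genes known to lack it.

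Promoters were read from a RefSeq table on GRCm38.p6 and matched by symbol for 58 of the 64 replication-dependent genes and 9 of the 10 variants. The variant left out was H2afx, the one with a stem-loop. Motifs were searched on both strands of the 250 bases before each start. The CCAAT box, bound by the trimeric factor NF-Y, was present before 47 of the 58 replication-dependent genes (81.0%), 5 of 9 variants and 33.8% of 32851 promoters in all. TATAAA was present before 27 of 58 (46.6%), 1 of 9 variants and 12.4% of all promoters. The octamer ATTTGCAT, bound by Oct-1, was present before 11 of 58 (19.0%), all of them H2A or H2B genes, before 1 of 9 variants (H3f3b) and before 1.60% of all promoters. AAACACA, known as the H1 box, was present before 5 of 6 H1 genes, 1 of 15 H2A genes, 1 of 15 H2B genes and 1 of 9 variants (H3f3a), against 6.25% of all promoters. CCAAT was present before 15 of 15 H2A and 15 of 15 H2B genes and 3 of 12 H4 genes. A match is a run of letters, not a shown binding site. H2A and H2B genes that stand head to head share part of these bases, so 1 match can count for both genes. The 150 bases nearest the start are the same in Hist1h2bq and Hist1h2br. The counts are therefore not all of separate promoters.

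The 150 bases before the start of 4 genes are printed to show these arrangements, with every match of the 4 motifs in capitals. Hist1h1b, a linker histone gene, lies at chr13:21780626-21780775 on the minus strand and holds the H1 box, CCAAT on both strands and TATAAA. Hist1h2bk, at chr13:22035671-22035820 on the plus strand, holds CCAAT on both strands and the octamer. Hist1h4d, at chr13:23581418-23581567 on the plus strand, holds CCAAT on the opposite strand and TATAAA. The variant H1f0, at chr15:79028062-79028211 on the plus strand, holds no match in these bases.

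Hist1h1b: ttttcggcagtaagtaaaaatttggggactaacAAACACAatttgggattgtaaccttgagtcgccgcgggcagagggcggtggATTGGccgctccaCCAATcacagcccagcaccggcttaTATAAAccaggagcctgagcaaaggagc

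Hist1h2bk: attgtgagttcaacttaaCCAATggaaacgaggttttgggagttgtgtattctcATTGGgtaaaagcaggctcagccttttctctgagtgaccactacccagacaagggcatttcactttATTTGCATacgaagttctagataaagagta

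Hist1h4d: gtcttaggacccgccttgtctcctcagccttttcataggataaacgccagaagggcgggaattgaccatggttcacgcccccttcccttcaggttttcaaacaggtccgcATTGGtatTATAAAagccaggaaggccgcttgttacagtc

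H1f0: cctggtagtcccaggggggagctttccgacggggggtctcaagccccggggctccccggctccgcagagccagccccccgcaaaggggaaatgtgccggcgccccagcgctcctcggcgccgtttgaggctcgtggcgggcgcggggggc

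The summed level of each replication-dependent family was higher in every shArl4c library than in any shControl library. Of the 59 tested genes, 40 were called higher and 0 lower by limma, and the remaining 19 were not called, where 18.9% of all tested genes were called higher. The median log2 fold change was 0.57, a median ratio of 1.52, with 57 of 59 positive. Without an adjustment, 50 passed as higher and 0 as lower at a p under 0.05, against 3388 and 3132 of all 14740 genes. edgeR called 38 higher and 0 lower on recovered reads, against 17.7% of all genes higher, and DESeq2 50 higher and 0 lower, against 13.6%. The shArl4c libraries did not overlap the shControl libraries for 50 of the 59 genes, all of them higher, where 24.3% of all genes were higher without overlap.

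The 10 variant genes behaved differently from each other: 4 were called higher (H2afz, H2afx, H2afy and H3f3b), 1 lower (H1fx), and 5 were not called. Of all tested genes, 18.9% were called higher and 18% lower. The median log2 fold change of the variants was 0.10. Of these 10, 6 did not overlap between groups, 5 of them higher, where 46.8% of all genes did not overlap and 24.3% were higher without overlap. The summed variant level was 1261, 1248 and 1293 CPM in shControl against 1416, 1248 and 1409 CPM in shArl4c, a ratio of 1.07, and the groups overlapped. The summed replication-dependent level was 3753, 3416 and 3618 CPM in shControl against 5884, 4415 and 5627 CPM in shArl4c, with means of 3596 ± 170.0 and 5309 ± 784 CPM (SD, n = 3) and a ratio of 1.48. The lowest shArl4c sum of replication-dependent genes was above the highest shControl sum. The sum of the first class over that of the second was 2.98, 2.74 and 2.80 in shControl and 4.16, 3.54 and 3.99 in shArl4c, again without overlap. In bulk RNA, fewer or more cells in S phase and a change of RNA per cell cannot be told apart.

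**Figure D1:**
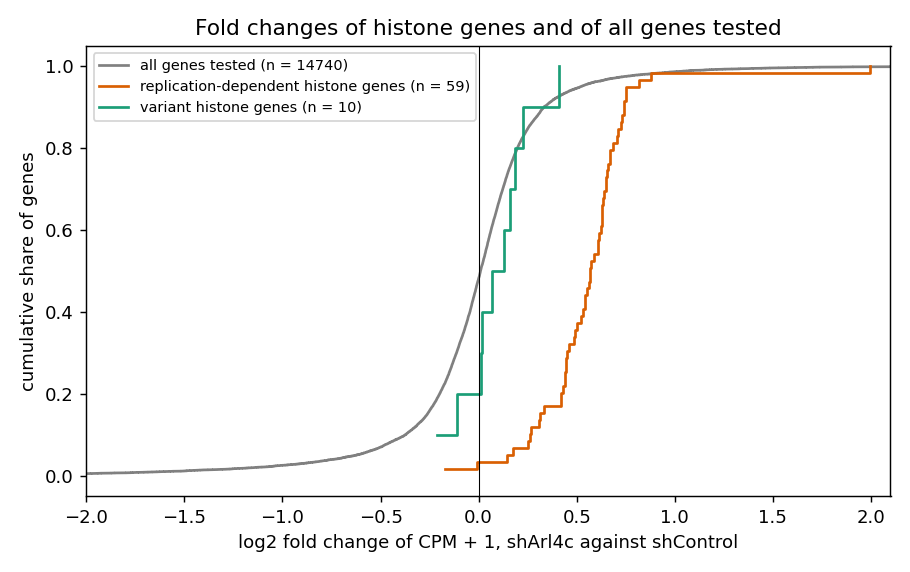
Cumulative share of genes (y axis) by log2 fold change of CPM + 1, shArl4c against shControl (x axis, cut at -2 and 2.1), for all 14740 tested genes, 59 replication-dependent and 10 variant histone genes. Of the replication-dependent genes 57 of 59 lie to the right of zero, with a median of 0.57 against 0.01 for all genes, and the variant curve, with a median of 0.10, lies near that of all genes.

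Library shArl4c 3 stood apart from the rest of its group in these genes. It was the lowest of the 3 shArl4c libraries for 55 of the 59 replication-dependent genes. This count includes Hist1h2br, for which shArl4c 2 and shArl4c 3 were level at 0. The median ratio to the shControl mean was 1.67 in shArl4c 2, 1.21 in shArl4c 3 and 1.61 in shArl4c 4. Each was above all shControl libraries for most genes, shArl4c 2 for 57, shArl4c 3 for 52 and shArl4c 4 for 55 of 59. Without shArl4c 3, 54 genes were called higher and 0 lower, where 23.8% of all genes were called higher. The median log2 fold change was 0.72 and the ratio of the sums was 1.60. Over the fits that each left out 1 library, 28 to 54 genes of this class were called higher. The share of all genes called higher was 14.8% without shControl 2, 16.1% without shControl 3, 16% without shArl4c 2 and 15% without shArl4c 4. Variants also shifted in shArl4c 3: the ratio of their sum to the shControl mean was 0.984 there and 1.11 to 1.12 in the other shArl4c libraries. Without it the variant ratio was 1.11, with 7 called higher and 0 lower, against 23.8% and 21.4% of all genes. Variants called higher numbered 2 without shControl 2, shArl4c 2 or shArl4c 4, where 14.8%, 16% and 15% of all genes were called higher, and the 1 called lower was lost without shControl 2, shControl 3 or shArl4c 4.

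**Figure D2:**
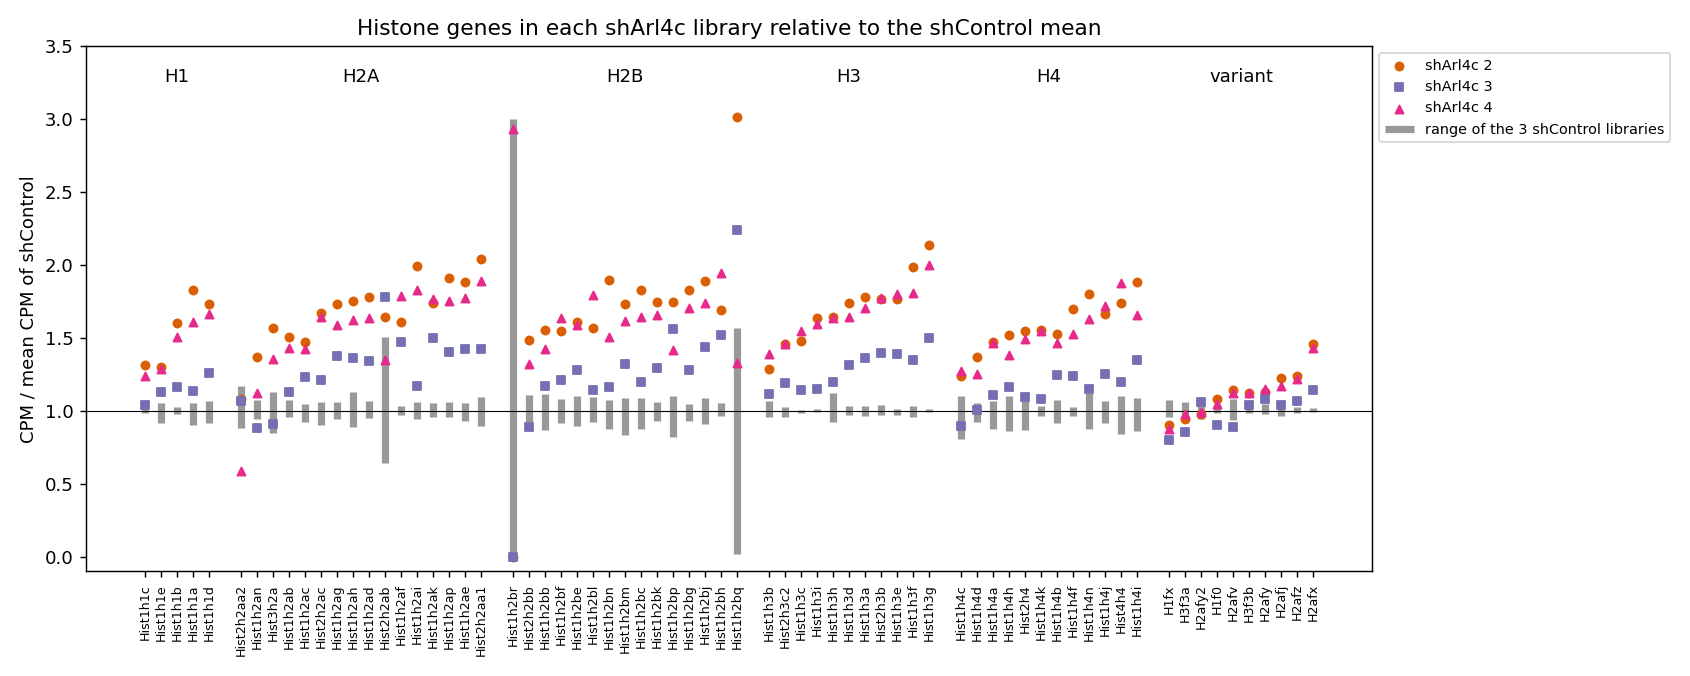
Level of each tested protein-coding histone gene in the shArl4c libraries (points) as CPM over the shControl mean (y axis), grouped by family and ordered by ratio, with gray bars for the range of the 3 shControl libraries. Most replication-dependent points lie above the bars, shArl4c 3 lowest in 55 of 59 genes (level with shArl4c 2 at 0 in Hist1h2br). Most variant points lie nearer to 1, those of H2afx farthest above it.

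The linker histones, H1, bind the DNA entering and leaving the nucleosome. Where 18.9% of all tested genes were called higher, 4 of 5 tested replication-dependent H1 genes were. Their median log2 fold change was 0.49, and the H1 sum had a ratio of 1.35. The most abundant by reads, Hist1h1c (now H1f2, ENSMUSG00000036181), stood at 160.3, 155 and 159 CPM in shControl against 208, 164 and 196 CPM in shArl4c (ratio 1.20, limma adjusted p = 0.0316). Its shArl4c 3 value lay just above the shControl libraries. Hist1h1e (H1f4) stood at 114, 117 and 102 CPM in shControl against 144, 125 and 143 CPM in shArl4c (ratio 1.24, limma adjusted p = 0.00146). Hist1h1b (H1f5), whose promoter is printed above, stood at 111, 106 and 108 CPM in shControl against 174, 126 and 164 CPM in shArl4c (ratio 1.42, limma adjusted p = 0.039). Hist1h1d (H1f3) had the largest ratio of the 5, 1.55, from 94.999, 90.8 and 81.5 CPM in shControl against 155, 112 and 148 CPM in shArl4c (limma adjusted p = 0.0318). In all of these the groups were apart, with shArl4c 3 nearest to shControl. Hist1h1a (H1f1) was not called at a limma adjusted p of 0.106, with 48.9, 41.8 and 48.0 CPM in shControl against 84.6, 52.5 and 74.2 CPM in shArl4c, although its groups did not overlap. Hist1h1t, the testis H1, had a mean below 1 CPM.

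H2A and H2B form the dimers on the outer faces of the nucleosome. Where 18.9% of all tested genes were called higher, 12 of 16 tested H2A genes were. Their median log2 fold change was 0.64, and their summed level had a ratio of 1.56. Hist2h2aa1 (H2ac18, ENSMUSG00000064220) had the largest ratio, 1.78, from 112, 99.2 and 121 CPM in shControl against 226, 158 and 209 CPM in shArl4c (log2 fold change 0.82 with SE 0.17 and an adjusted p of 0.0233 by limma). Its copy Hist2h2aa2, with 38.2, 47.0 and 35.6 CPM in shControl against 43.5, 42.9 and 23.7 CPM in shArl4c, was not called and overlapped. All of its annotated 50-base stretches occur in other genes as well, so reads of the pair cannot be assigned with certainty, and the sum of both had a ratio of 1.55.

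Other H2A genes changed with less spread. Hist1h2ak (H2ac15) stood at 50.6, 55.9 and 52.3 CPM in shControl against 92.1, 79.4 and 93.6 CPM in shArl4c (ratio 1.67, limma adjusted p = 4.11e-08), the smallest p of the replication-dependent genes. Hist1h2af (H2ac10) stood at 23.5, 22.1 and 22.8 CPM in shControl against 36.7, 33.7 and 40.8 CPM in shArl4c (ratio 1.62, limma adjusted p = 4.59e-07). Hist1h2ag (H2ac11) stood at 46.2, 41.2 and 43.5 CPM in shControl against 75.6, 60.0 and 69.2 CPM in shArl4c (ratio 1.56, limma adjusted p = 9.37e-06). For these 3 genes shArl4c 3 was also well above every shControl library. Of their 50-base stretches, 52.3%, 79.7% and 78.9% also occur in other genes. Hist1h2ap was the most abundant H2A gene by reads, with 137, 124 and 128 CPM in shControl against 248, 182 and 227 CPM in shArl4c (ratio 1.69, limma adjusted p = 0.00866). Of its 50-base stretches, 93.1% also occur in Hist1h2ao, which is not listed, so its reads may include those of that gene. Hist1h2ae (H2ac8) had 33.8, 29.99 and 32.7 CPM in shControl against 60.5, 45.7 and 57.1 CPM in shArl4c, and Hist1h2ac (H2ac6) had 22.7, 20.4 and 23.0 CPM in shControl against 32.5, 27.2 and 31.3 CPM in shArl4c. Both were called, at limma adjusted p values of 8.77e-05 and 0.000149. Hist1h2ah (H2ac12) and Hist1h2ad (H2ac7) were called with ratios of 1.58 and 1.59.

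Among the H2A genes that were not called, Hist1h2ai (H2ac13) had 28.4, 29.9 and 31.8 CPM in shControl against 59.9, 35.2 and 54.9 CPM in shArl4c, without overlap, at a limma adjusted p of 0.0853. Hist1h2an (H2ac22), with 20.1, 17.6 and 18.5 CPM in shControl against 25.6, 16.5 and 21.0 CPM in shArl4c, and Hist3h2a (H2aw), with 26.1, 23.6 and 19.5 CPM in shControl against 36.2, 21.0 and 31.2 CPM in shArl4c, overlapped. In both, shArl4c 3 lay within or below the shControl range. Hist2h2ab (H2ac21) lay near the minimum for testing, at 2.73, 1.55 and 1.16 CPM in shControl against 2.98, 3.22 and 2.45 CPM in shArl4c. It was called (limma adjusted p = 0.0465) although its groups overlapped. Just below that minimum lay an H2B gene, Hist2h2be, at 0.471 to 1.45 CPM, and an H3 gene, Hist2h3c1, at 0 to 1.91 CPM, which were not tested.

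Where 18.9% of all tested genes were called higher, 11 of 15 tested H2B genes were. Their median log2 fold change was 0.61, and their summed level had a ratio of 1.54. Hist1h2bh (H2bc9) stood at 23.8, 21.8 and 22.2 CPM in shControl against 38.3, 34.4 and 44.0 CPM in shArl4c (log2 fold change 0.75 with SE 0.08 and an adjusted p of 5.01e-07 by limma). Hist1h2bj (H2bc11) stood at 63.0, 52.7 and 57.8 CPM in shControl against 109, 83.2 and 100.5 CPM in shArl4c (ratio 1.69, limma adjusted p = 0.00241). Hist1h2bk (H2bc12, ENSMUSG00000062727), whose stem-loop and promoter are printed above, stood at 68.5, 59.8 and 65.0 CPM in shControl against 112, 83.3 and 107 CPM in shArl4c (ratio 1.56, limma adjusted p = 0.0107). The 3 genes had no overlap between groups. Hist1h2bg (H2bc8) had 81.6, 72.8 and 80.3 CPM in shControl against 143, 100.1 and 133 CPM in shArl4c, and Hist1h2be (H2bc6), the most abundant H2B gene in shControl by reads, had 94.6, 77.2 and 86.4 CPM in shControl against 139, 110.2 and 136 CPM in shArl4c. Both were called, with ratios of 1.60 and 1.49. Hist1h2bp (H2bc22) was one of the 4 exceptions to the order of the libraries: with 20.3, 15.6 and 20.9 CPM in shControl against 33.0, 29.6 and 26.9 CPM in shArl4c, shArl4c 3 was not its lowest shArl4c library. Hist1h2bc (H2bc4) was not called, with 38.3, 32.3 and 40.0 CPM in shControl against 67.4, 44.1 and 60.6 CPM in shArl4c (limma adjusted p = 0.0681), nor was Hist2h2bb (H2bc18), with 48.2, 43.7 and 38.4 CPM in shControl against 64.5, 38.8 and 57.3 CPM in shArl4c, which overlapped.

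The extremes of the H2B family came from a pair of near-identical genes. Hist1h2bq stood at 36.5, 32.7 and 0.496 CPM in shControl against 69.9, 51.9 and 30.8 CPM in shArl4c and Hist1h2br at 0, 0 and 40.3 CPM in shControl against 0, 0 and 39.4 CPM in shArl4c. Reads stood at Hist1h2bq alone in 4 libraries, mostly at Hist1h2br in shControl 3 and at both genes in shArl4c 4. The value of Hist1h2bq in shControl 3 was near 0 where Hist1h2br was at its highest. Of their annotated 50-base stretches, 97.3% and 88.7% also occur in other genes. The fitted log2 fold changes of 1.99 (SE 1.53) and -0.01 (SE 2.48) are therefore not measures of either gene, and neither was called. The sum of both was 36.5, 32.7 and 40.8 CPM in shControl against 69.9, 51.9 and 70.2 CPM in shArl4c, a ratio of 1.75 with no overlap.

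**Figure D3:**
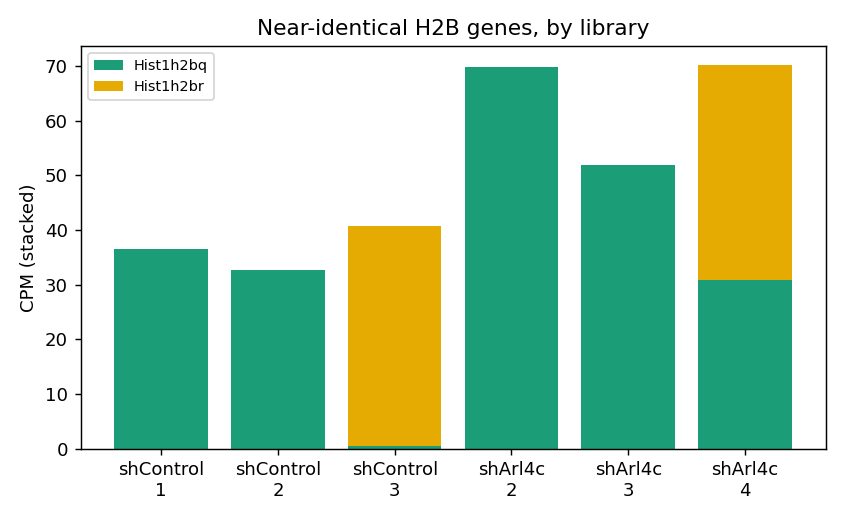
Stacked levels (y axis, CPM) of the near-identical H2B genes Hist1h2bq and Hist1h2br in each of the 6 libraries. The split between the genes differs from library to library, all at Hist1h2bq in 4 libraries, while the summed bars are higher in shArl4c, at 51.9 to 70.2 CPM against 32.7 to 40.8 CPM.

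H3 and H4 form the tetramer at the nucleosome core. Of all tested genes, 24.3% were higher without overlap and 18.9% were called higher. All 11 tested H3 genes were higher without overlap, 9 of them called. Their median log2 fold change was 0.63, and their summed level had a ratio of 1.503. Hist1h3g (H3c8, ENSMUSG00000099517) stood at 41.1, 41.8 and 41.0 CPM in shControl against 88.1, 61.9 and 82.6 CPM in shArl4c. The shControl libraries of this gene were close together and the shArl4c libraries spread above them, for a ratio of 1.88 (log2 fold change 0.88 with SE 0.13 and an adjusted p of 0.00287 by limma). Hist2h3c2 (H3c15), the most abundant replication-dependent gene by reads, stood at 219.7, 204 and 217 CPM in shControl against 312, 254 and 312 CPM in shArl4c (ratio 1.37, limma adjusted p = 0.00243). Hist2h3b (H3c13) stood at 123, 117 and 115 CPM in shControl against 209, 165 and 209.5 CPM in shArl4c (ratio 1.64, limma adjusted p = 0.00131). With Hist2h3c1, a copy below 1 CPM on average, the 3 summed to a ratio of 1.47.

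The other H3 genes lay in the same range. Hist1h3a (H3c1) stood at 43.5, 40.6 and 42.5 CPM in shControl against 75.1, 57.4 and 72.0 CPM in shArl4c, and Hist1h3e (H3c6) at 73.4, 76.7 and 76.8 CPM in shControl against 134, 105 and 136 CPM in shArl4c. These were called at limma adjusted p values of 0.000123 and 0.000875. Hist1h3f (H3c7) had 78.0, 74.0 and 80.1 CPM in shControl against 154, 104 and 140.0 CPM in shArl4c (ratio 1.72), and Hist1h3b (H3c2) had the smallest ratio of the family, 1.26, from 116, 105 and 104 CPM in shControl against 139, 120.4 and 151 CPM in shArl4c (limma adjusted p = 0.00924). Hist1h3d (H3c4) and Hist1h3c (H3c3) were called with ratios of 1.57 and 1.39. Hist1h3h (H3c10) and Hist1h3i (H3c11) were not called, at limma adjusted p values of 0.0594 and 0.0556 and ratios of 1.49 and 1.46.

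Where 18.9% of all tested genes were called higher and 24.3% were higher without overlap, H4 counts were as follows. Of 12 tested H4 genes, 4 were called higher, 8 were not called, and 10 were higher without overlap. The median log2 fold change was 0.47, and the ratio of summed levels was 1.38. The difference between H4 and the other families was not tested. Hist1h4i (H4c9) stood at 9.23, 11.6 and 11.2 CPM in shControl against 20.1, 14.4 and 17.7 CPM in shArl4c (ratio 1.63, limma adjusted p = 0.000275). Hist1h4b (H4c2) stood at 44.2, 37.5 and 41.5 CPM in shControl against 62.7, 51.3 and 60.1 CPM in shArl4c (ratio 1.41, limma adjusted p = 0.00015). Hist1h4f (H4c6) and Hist1h4j (H4c11) were called with ratios of 1.49 and 1.55. The most abundant H4 gene by reads, Hist1h4d (H4c4, ENSMUSG00000061482), stood at 147, 133 and 151 CPM in shControl against 197, 144 and 179.8 CPM in shArl4c. It was not called (limma adjusted p = 0.21), and shArl4c 3 fell within the shControl range. Hist1h4c (H4c3), with 43.1, 31.9 and 43.5 CPM in shControl against 49.1, 35.3 and 50.2 CPM in shArl4c, had the smallest ratio of the family, 1.14, with overlap. Hist4h4, alone on chromosome 6, had 22.7, 17.4 and 21.8 CPM in shControl against 35.9, 24.7 and 38.6 CPM in shArl4c, without overlap but at a limma adjusted p of 0.0637. Hist1h4n (H4c18) had 125, 97.0 and 112 CPM in shControl against 200.01, 128 and 181 CPM in shArl4c (limma adjusted p = 0.114). Of its 50-base stretches, 85.6% also occur in other genes. For all 12 tested H4 genes, called or not, shArl4c 3 was the lowest of the shArl4c libraries.

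Replication-dependent genes called higher came from every cluster with more than 1 tested gene. Of all tested genes, 18.9% were called higher. On chromosome 13 the tested genes lie in 3 stretches. The first, from Hist1h2bl to Hist1h2br, had 8 of 16 called higher and a median log2 fold change of 0.58. The second, from Hist1h2ah to Hist1h2bj, had 5 of 5 called and a median of 0.65, and the third, which holds Hist1h3g and Hist1h1c, had 22 of 28 called and a median of 0.56. The chromosome 3 cluster, which holds Hist2h2aa1 and Hist2h3c2, had 5 of 8 called and a median of 0.47. The 1 tested gene of chromosome 11, Hist3h2a, and that of chromosome 6, Hist4h4, were not called. Differences between the stretches were not tested.

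H2A and H2B genes often stand head to head with a shared promoter region. There were 10 such pairs with starts 176 to 302 bases apart, and both genes were tested in 9. The log2 fold changes within a pair differed by 0.02 to 0.75, with a median of 0.14. The closest were Hist1h2ah, at 0.65, and Hist1h2bk, at 0.63. The farthest apart were Hist1h2ap, at 0.74, and Hist1h2br, at -0.01, whose reads could not be separated from those of Hist1h2bq.

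Many replication-dependent genes share long stretches of sequence, and the sources used here do not say how reads with several matches were assigned. The 11 tested genes with under 20% of their 50-base stretches in other genes had a median log2 fold change of 0.49, and 6 were called higher. The summed level of all 13 listed genes of that kind was 797, 718 and 773 CPM in shControl against 1153, 859 and 1101 CPM in shArl4c, a ratio of 1.36 with no overlap. These 13 held H1, H2A, H2B and H4 genes but no H3 gene, and the whole H1 and H4 sums had ratios of 1.35 and 1.38. Sequence sharing and family therefore cannot be told apart in this subset. The 13 tested genes with at least 80% of their stretches shared had a median of 0.56, with 5 called higher. Of all tested genes, 18.9% were called higher. This split was chosen after the values were seen.

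Of the 5 other matches, Hist1h2al, an H2A pseudogene in the annotation, stood at 58.9, 61.7 and 55.6 CPM in shControl against 103, 72.3 and 93.7 CPM in shArl4c and was called higher (ratio 1.53, limma adjusted p = 0.0276). Of its 50-base stretches, 67.6% occur in other genes. H2afy3, with 8.41, 7.13 and 6.78 CPM in shControl against 6.68, 11.1 and 7.96 CPM in shArl4c, was not called. The other three were below 1 CPM in all libraries.

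The variants are taken by family. H2afz and H2afv encode the H2A.Z proteins. H2afz (H2az1) stood at 227, 236 and 229 CPM in shControl against 285, 246 and 281 CPM in shArl4c, so that all shArl4c libraries were above all shControl libraries (log2 fold change 0.23 with SE 0.05 and an adjusted p of 0.00159 by limma). H2afv (H2az2) stood at 43.7, 41.6 and 48.0 CPM in shControl against 50.7, 39.6 and 49.97 CPM in shArl4c, with shArl4c 3 below the shControl libraries, and was not called (limma adjusted p = 0.637). The 2 summed to a ratio of 1.16.

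H2afx (H2ax, ENSMUSG00000049932) encodes H2A.X, which is phosphorylated at DNA breaks, and is the 1 variant with a histone stem-loop. Its levels were 72.2, 74.0 and 72.0 CPM in shControl against 106, 83.1 and 104 CPM in shArl4c. The shControl values lay within a narrow range and all shArl4c values were above it, for a ratio of 1.34 (log2 fold change 0.41 with SE 0.08 and an adjusted p of 0.00305 by limma), the largest ratio of the 10 variants. Without H2afx, 3 of 9 variants were called higher and 1 lower, against 18.9% and 18% of all genes. Their median was then 0.07, and the variant sum had a ratio of 1.05. H2afj (H2aj), with 25.8, 24.5 and 26.1 CPM in shControl against 31.2, 26.5 and 29.8 CPM in shArl4c, did not overlap but was not called (limma adjusted p = 0.0511). H2afy, which encodes macroH2A1 with its large non-histone domain, stood at 54.8, 51.2 and 51.5 CPM in shControl against 59.2, 56.7 and 60.5 CPM in shArl4c (ratio 1.12, limma adjusted p = 0.0234). Its relative H2afy2, macroH2A2, stood at 21.5, 20.9 and 23.8 CPM in shControl against 21.6, 23.4 and 21.9 CPM in shArl4c and was not called.

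H3f3a and H3f3b encode the same H3.3 protein. H3f3b stood at 353, 350.2 and 360.3 CPM in shControl against 398, 368 and 396 CPM in shArl4c, a small difference without overlap (ratio 1.09, limma adjusted p = 0.0214). H3f3a stood at 261, 247 and 276 CPM in shControl against 247, 223 and 256 CPM in shArl4c, with overlapping groups and a log2 fold change of -0.11 (with SE 0.05 and an adjusted p of 0.129 by limma). The sum of both was 614, 597 and 637 CPM in shControl against 646, 590.4 and 653 CPM in shArl4c, a ratio of 1.02 with overlap.

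Neither variant linker histone was called higher. H1fx (H1f10) stood at 24.9, 28.0 and 25.1 CPM in shControl against 23.4, 20.8 and 22.7 CPM in shArl4c and was called lower (log2 fold change -0.21 with SE 0.07 and an adjusted p of 0.0305 by limma). DESeq2 did not call it. H1f0, the linker histone associated with differentiated and resting cells, stood at 177, 175 and 181 CPM in shControl against 193, 161 and 186 CPM in shArl4c, with shArl4c 3 below and the other shArl4c libraries above the shControl range (limma adjusted p = 0.899). Cenpa, the centromeric H3 variant, which the naming rule misses, stood at 96.8, 90.6 and 88.3 CPM in shControl against 102, 101 and 106 CPM in shArl4c (ratio 1.12, limma adjusted p = 0.0119).

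**Figure D4:**
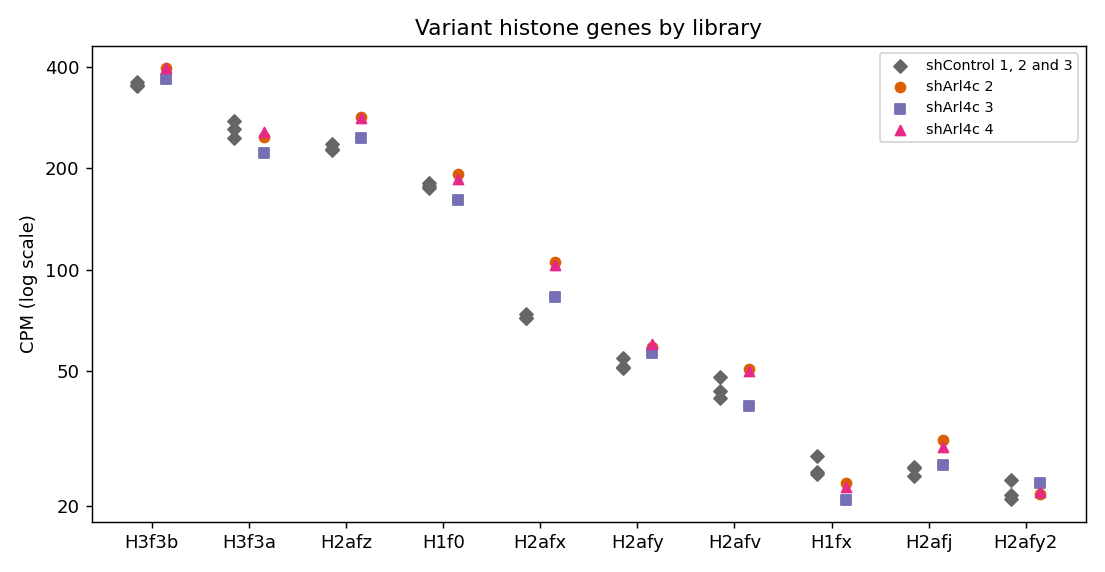
Level of the 10 variant histone genes (CPM, log axis) in the shControl (gray) and shArl4c libraries. H2afx shows the widest gap between groups, from 72.0 to 74.0 CPM in shControl and 83.1 to 106 CPM in shArl4c, while H3f3a, H1f0, H2afv and H2afy2 overlap.

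Per kilobase of annotated exons, the variant levels in shControl ran from 129.9 CPM per kb for H2afz, 119 for H3f3b, 86.6 for H1f0 and 74.6 for H3f3a through 52.5 for H2afx to 7.71 for H2afy. Of the replication-dependent genes with a stem-loop printed above, Hist1h1c stood at 101, Hist1h3g at 77.9, Hist2h2aa1 at 189, Hist1h2bk at 135 and Hist1h4d at 126 CPM per kb. These levels depend on the annotated length, which for some models is the coding length alone.

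The shares of variant reads within a family were lower in shArl4c, where the replication-dependent sums were higher. H3.3 made up 36.4%, 37.0% and 38.2% of H3 reads in shControl and 27.6%, 31.2% and 27.9% in shArl4c, with means of 37.2% ± 0.900 and 28.9% ± 1.98 (SD, n = 3). H2A.Z made up 22.0%, 23.6% and 22.6% of H2A reads in shControl and 17.8%, 19.3% and 18.6% in shArl4c. H1f0 made up 24.2%, 24.5% and 25.7% of H1 reads in shControl and 19.6%, 21.1% and 19.9% in shArl4c. None of these shares overlapped between groups. H1fx made up a mean of 3.63% of H1 reads in shControl and 2.51% in shArl4c, again without overlap. Replication-dependent genes took a mean of 0.356% of all reads in shControl and 0.536% in shArl4c.

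Genes that make and place histones were read from lists of their own. Slbp, which binds the stem-loop, stood at 49.8, 52.6 and 51.4 CPM in shControl against 67.6, 64.8 and 69.6 CPM in shArl4c (ratio 1.31, log2 fold change 0.39 with SE 0.05 and an adjusted p of 6.6e-06 by limma). Its 3 shArl4c libraries lay close together above shControl, shArl4c 3 included. Eri1, an exonuclease that trims histone mRNA ends, stood at 48.5, 48.8 and 50.6 CPM in shControl against 63.2, 60.0 and 59.6 CPM in shArl4c (limma adjusted p = 0.000124). Npat, the coactivator of histone gene transcription, stood at 45.5, 43.4 and 43.1 CPM in shControl against 53.1, 49.8 and 53.9 CPM in shArl4c (limma adjusted p = 0.00174). Both were without overlap. Zfp473, the U7-associated zinc finger protein, was near the minimum, with 0.886, 0.672 and 0.496 CPM in shControl against 1.02, 1.87 and 1.53 CPM in shArl4c (limma adjusted p = 0.0286). Casp8ap2, another protein of histone locus bodies, had 49.8, 44.6 and 45.7 CPM in shControl against 48.3, 46.8 and 48.6 CPM in shArl4c, and the U7 components Lsm10 and Lsm11 had ratios of 0.850 and 0.999. None of these last 3 was called.

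Of 31 tested genes of histone 3′ end processing, 14 were called higher and 1, Cstf2t, lower, with a median log2 fold change of 0.12. The smallest p values belonged to Larp7 (ratio 1.54), Cstf2, a cleavage stimulation factor (ratio 1.29), and Slbp. Of 20 genes of histone gene transcription, 8 were called higher and 1, Nfyc, lower, with a median of 0.15, and Ccna2, cyclin A2, had a ratio of 1.33. Of 40 chaperones and deposition factors, 19 were called higher and 2, Nap1l4 and Spty2d1, lower, with a median of 0.13. Chaf1a, a subunit of the replication-coupled chaperone CAF-1, had 59.8, 61.0 and 66.0 CPM in shControl against 86.8, 87.8 and 82.3 CPM in shArl4c (ratio 1.38). Hat1, which acetylates new H4, had a ratio of 1.305. The share of all genes called higher, given above, was 18.9%, and the share called lower 18%. Slbp, Casp8ap2, Ccne2 of the transcription list and Chaf1b of the chaperone list are also in the S phase list. Without shControl 2, shControl 3 or shArl4c 4, 9 genes of 3′ end processing were called higher, where 14.8%, 16.1% and 15% of all genes were, and the lower calls of the transcription and chaperone lists fell to 0 or 1 without single libraries, shArl4c 3 among them.

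S phase marker genes were mostly higher as well. Of 42, 35 were called higher and 1, Cdca7, lower, where 18.9% and 18% of all tested genes were. The 42 markers had a median log2 fold change of 0.37. Their summed level was 2319, 2312 and 2376 CPM in shControl against 3106, 2910.0 and 3047 CPM in shArl4c, a ratio of 1.29 with no overlap. In shArl4c 3 the sum was 1.246 times the shControl mean, with the other shArl4c libraries up to 1.33, whereas the replication-dependent histone sum of that library was 1.23 times the shControl mean, against 1.56 and 1.64. A list of RNAs without a poly(A) tail held 11 listed genes, 1 of which, Snhg1, is a polyadenylated host transcript and was left out after its values were seen. The other 10 summed to 454, 340.3 and 355 CPM in shControl against 417, 291 and 409.8 CPM in shArl4c, lowest in shArl4c 3, with overlapping groups and a ratio of 0.973. The 7 of them that were tested had a median log2 fold change of -0.27, and of 0.02 without shArl4c 3. Of these 7, 0 were called by limma or edgeR in either direction, where 36.9% and 36.5% of all genes were. DESeq2 called 1 lower, where 14.3% of all genes were, and 1 was lower at an unadjusted p under 0.05 in limma. The part of S phase entry and of RNA without a tail in the histone values was not tested.

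**Figure D5:**
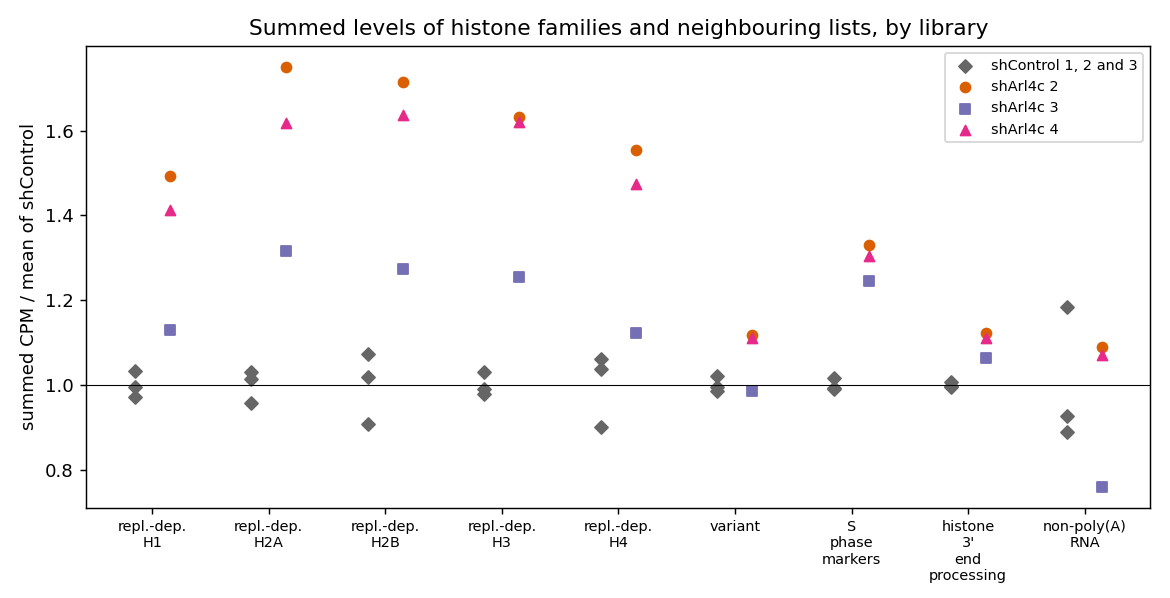
Summed CPM of the histone families and of 3 lists, each over its shControl mean (y axis), with 1 point per library. The 5 replication-dependent families lie above shControl in every shArl4c library, lowest in shArl4c 3, while the variant sum and that of non-polyadenylated RNA (without Snhg1) overlap between groups.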

How the data were processed

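RNA-seq libraries of mDE6 cells, 3 shControl and 3 shArl4c, were compared. The authors deposited 1 table of CPM values. Trimmomatic 0.38, RSEM 1.3.0, Bowtie2, edgeR and the build GRCm39 were named, per the submitters' processing notes, without order or settings, so the treatment of reads shared by histone copies is unknown. Dividing each column by its smallest value gave whole reads (100% of values, tolerance 0.001 of a read), which served as recovered counts. A directional kit was used, per the labels' protocols, but the sources used here do not say whether counting used strand. Columns named shluc were taken as shControl, and those named shArt4c, read as a misspelling of the Arl4c hairpin, as shArl4c. They were matched to groups and not to single samples. Of 22032 identifiers, 21880 matched a symbol in a name table based on the gene annotation at hand, 152 did not, and 21 shared one.

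The 14740 genes averaging at least 1 CPM were fitted as log2(CPM + 1) with limma 3.58.1 in R 4.3.3, with trend and robust moderation. Fold changes are thus on the log2(CPM + 1) scale, which understates those of low genes, and ratios are of group mean CPM. P-values were adjusted by Benjamini and Hochberg over all tested genes, and a gene was called at under 0.05. The members and the lists were chosen with earlier results of these data known. Tested histone genes could be named, as could Arl4c, Cenpa, Slbp, Npat, Casp8ap2, Lsm10, Lsm11, Zfp473, Eri1 and the 3 list members with the smallest p. Any other gene named (Cstf2t, Nfyc, Nap1l4, Spty2d1, Cdca7, Ccne2, Chaf1b, Cd68, Snhg1 and histone genes below 1 CPM) was chosen after its values were seen. Alternatives were pseudocounts of 0.5 and 5, no filter or 5 CPM, plain CPM, median of ratios, TMM, quantiles, limma with array weights or with neither trend nor robust moderation, edgeR 4.0.16 and DESeq2 1.42.0 on recovered reads (5376 and 4108 genes called, 5445 by limma), and leaving out each library. Sequence work used Python 3.11.15 with GENCODE M21 transcripts and RefSeq promoters. The fits were checked on simulated counts. There 8.1% of the limma calls and 8.0% of the edgeR calls were false. Both recovered 50% of changes of 1.25-fold and 66% of those of 1.5-fold. For changes of 2-fold limma recovered 82% and edgeR 84%. The false shares lay above the 0.05 aimed at. Far fewer genes were changed there than were called in the data (160 limma calls against 5445), so these shares need not carry over to the data.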

Additional observations from a re-analysis of the deposited data

How the results depend on the processing

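Over all alternatives, replication-dependent genes called higher numbered 28 to 54 of 59, with 0 called lower in each. The range was also 28 to 54 over the fits that left out 1 library. Of all genes, 14.8% were called higher without shControl 2, 16.1% without shControl 3, 16% without shArl4c 2, 15% without shArl4c 4 and 23.8% without shArl4c 3. Of the 40 called, 24 kept their call in every setting, and 2 of 5 called variants did. No gene's call reversed: 1512 gene-by-setting values kept their side of the threshold, 74 passed it and 100 lost it. Variants called higher were 2 without trend and robust moderation, where 15.2% of all genes were called higher. With 1 library left out they were 2 to 7. Variants called lower were 0 with plain CPM, without trend and robust moderation and with DESeq2. In these settings 15.9%, 15.3% and 14.3% of all genes were called lower. With 1 library left out, 0 to 1 variants were called lower. With DESeq2, 9 genes of 3′ end processing were called higher, and 9 to 14 with 1 library left out. Genes called lower were 0 in the transcription and chaperone lists with no filter, plain CPM, no trend and robust moderation or DESeq2, and 0 to 1 with 1 library left out. In the S phase list, genes called lower were 0 without trend and robust moderation and with DESeq2, and 0 to 1 with 1 library left out. The ratio of replication-dependent sums ran from 1.36 to 1.60 and that of variant sums from 1.05 to 1.11; 2 of those settings, the variant sum without H2afx and the genes with under 20% of stretches shared, were chosen after seeing the data. The median log2 fold change of all genes lay at or below 0.04 under every scaling. No paired analysis was possible because the columns could be tied to groups but not to single samples, and their numbers differ from those of the labels. Depth limits histone genes below 1 CPM, near the floor of 0.202 to 0.248 CPM, and 3 libraries a group limit the rest.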
